A study of Mus musculus with 19 samples.

Results

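The genes described here encode the protein subunits of the mitochondrial ribosome, and were taken as every gene whose platform symbol begins with Mrpl (large subunit) or Mrps (small subunit) followed by a digit. The platform carried 76 such genes on 110 of its 25697 probes, and 70 of them were detected widely enough to be tested among 11072 genes. Each gene is represented by its brightest detected probe, and the values are log2 intensities after background correction and quantile normalisation.

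Messenger RNA was measured in prefrontal cortex of female mice at 20 months of age, with 1 array for each of 19 RNA samples. The 4 genotypes were 3xTgAD/Polb+/- (n = 4), 3xTgAD (n = 6), Polb+/- (n = 4) and wild type (n = 5). 3xTgAD mice carry APPswe, PS1M146V and tauP301L, and model amyloid and tau pathology, with APP and tau made from transgenes under a neuronal promoter. Polb+/- mice have 1 working copy of the gene for DNA polymerase beta, an enzyme of base excision repair, and 3xTgAD/Polb+/- mice came from a cross of both lines. All samples are labelled with the strain C57BL/6, and the labels do not say whether each array is a separate mouse, so the p-values measure the spread between these arrays.

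Mitochondria translate the few proteins encoded by their own DNA, all of them parts of the respiratory chain or ATP synthase, on a ribosome of their own. Its RNAs come from mitochondrial DNA, whereas all of its proteins are encoded in the nucleus, made in the cytosol and imported. Many of these proteins descend from bacterial ribosomal proteins, and others are found in mitochondria alone. Neurons have a high demand for the ATP that this system helps to supply.

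The targeted gene checked most labels. Polb had log2 intensities of 6.53 to 7.21 on the 3xTgAD/Polb+/- arrays and of 6.95 to 7.26 on the Polb+/- arrays, against 7.55 to 7.97 on wild type arrays. In 3xTgAD mice 4 arrays had 7.53 to 7.79, but the arrays labelled 3xTgAD replicates 4 and 6 had 6.89 and 6.64, in the range of the heterozygotes, and results on 3xTgAD are therefore also given without them. The arrays detected 13205 to 14396 probes each. Cortical excitatory neuron markers were present throughout, with a mean log2 intensity of 9.78 to 10.47 over the 6 tested. The labels spell the age as "20- month" on 11 arrays and as "20 month" on 8, both within every genotype, and values within each spelling stand beside the main ones. The "20- month" arrays detected 13876 to 14396 probes each and the "20 month" arrays 13205 to 13562, without overlap. What the spelling stands for is not stated.

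Of the 70 tested genes 45 belong to the large and 25 to the small subunit, and 67 were detected on every array. The exceptions were Mrps27, detected on 18 arrays, Mrpl45 on 10 and Mrpl15 on 5. The probe of Mrpl15 was above background on 1 of 4 arrays of 3xTgAD/Polb+/-, 1 of 6 of 3xTgAD, 0 of 4 of Polb+/- and 3 of 5 of wild type, so its differences are not interpreted. Mrpl19, Mrpl21, Mrpl32 and Mrps36 were detected on 0 arrays, Mrps14 on 1 and Mrpl39 on 3, and these 6 were not tested. Mrps36 is nowadays assigned to the oxoglutarate dehydrogenase complex of the TCA cycle, whereas Mrps18a and Mrps30 carry small subunit names but sit in the large subunit.

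The promoters of several members that the results turn on hold a short motif of the ETS family of transcription factors, which includes GABP, a regulator of nuclear genes for mitochondrial proteins. RefSeq promoter windows of build GRCm38.p6, reaching from 250 bases before to 50 bases after the start, were matched for 62 of the 70 members. On either strand the ETS core CCGGAAG occurred in 25 of the 62 (40.3%), against 18.3% of the 8280 tested genes with a window. The YY1 core AAGATGGC occurred in 11 (17.7%), against 4.99%. The core of NRF1, GCGCATGC, occurred in 6 (9.68%), against 5.65%. The sequence TATAAA was found in 5 (8.06%), against 9.58%, and CCAAT in 23 (37.1%), against 43.2%. The ETS and YY1 cores can share the letters AAG, and a match describes these letters only. The 100 bases before the start are shown for 6 members chosen after their values were seen, since they have low values in 3xTgAD/Polb+/- mice and a core in these bases, 5′ to 3′ in the direction of the gene, with ETS and YY1 cores in capitals.
Mrpl34 (chr8:71464826-71464925, plus strand): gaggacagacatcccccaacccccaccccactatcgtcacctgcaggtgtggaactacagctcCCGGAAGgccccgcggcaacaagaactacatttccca
Mrpl43 (chr19:45006443-45006542, minus strand): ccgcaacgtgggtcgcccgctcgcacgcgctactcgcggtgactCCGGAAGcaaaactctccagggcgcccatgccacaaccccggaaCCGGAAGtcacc
Mrpl27 (chr11:94653691-94653790, plus strand): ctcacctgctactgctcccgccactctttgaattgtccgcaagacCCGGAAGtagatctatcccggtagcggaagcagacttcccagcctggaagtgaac
Mrpl52 (chr14:54426809-54426908, plus strand): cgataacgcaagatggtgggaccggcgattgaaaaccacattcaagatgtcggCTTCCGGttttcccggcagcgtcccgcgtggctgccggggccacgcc
Mrps27 (chr13:99344686-99344785, plus strand): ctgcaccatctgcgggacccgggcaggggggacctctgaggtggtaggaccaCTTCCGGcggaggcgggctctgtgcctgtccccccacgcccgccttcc
Mrpl36 (chr13:73330909-73331008, plus strand): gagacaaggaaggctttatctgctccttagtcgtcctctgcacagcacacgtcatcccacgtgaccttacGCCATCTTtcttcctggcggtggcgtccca

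Mrpl43 holds 2 ETS cores, beginning 56 and 12 bases before its start, and Mrpl34, Mrpl27, Mrpl52 and Mrps27 hold 1 each, beginning 37, 55, 47 and 48 bases before it. Those of Mrpl52 and Mrps27 lie on the opposite strand. Mrpl36 holds instead a YY1 core on the opposite strand, 30 bases before its start. Over the members matched, the median log2 difference of 3xTgAD/Polb+/- from wild type was -0.37 for the 25 with an ETS core and -0.17 for the others. With and without the other sequences it was -0.31 and -0.22 for YY1, -0.27 and -0.23 for NRF1, -0.25 and -0.22 for CCAAT, and -0.17 and -0.23 for TATAAA. These medians are descriptions without a test, and the same split was not made over all genes.

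The largest departures of the members from wild type were on single arrays. The median deviation of the 70 members from their wild type means was -0.26, -0.75, 0.03 and -0.03 on 3xTgAD/Polb+/- replicates 1 to 4. It lay between -0.29 and -0.07 on the 6 arrays of 3xTgAD, between -0.08 and 0.11 on those of Polb+/-, and between -0.06 and 0.07 on those of wild type. The low values were therefore on replicates 1 and 2 of 3xTgAD/Polb+/-, whereas replicates 3 and 4 lay within the wild type range. In 3xTgAD all 6 medians were below the lowest wild type median, with replicate 3 lowest and the others between -0.13 and -0.07. The gap was narrow, with -0.067 on 3xTgAD replicate 1 and -0.060 on wild type replicate 5. Wild type arrays deviate from a mean that includes them, which narrows their range. The headings give 3xTgAD replicates 2 and 5 the same code, so the 6 arrays may not be separate mice. The median over all 11072 genes was between -0.02 and 0.04 on every array.

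**Figure D1:**
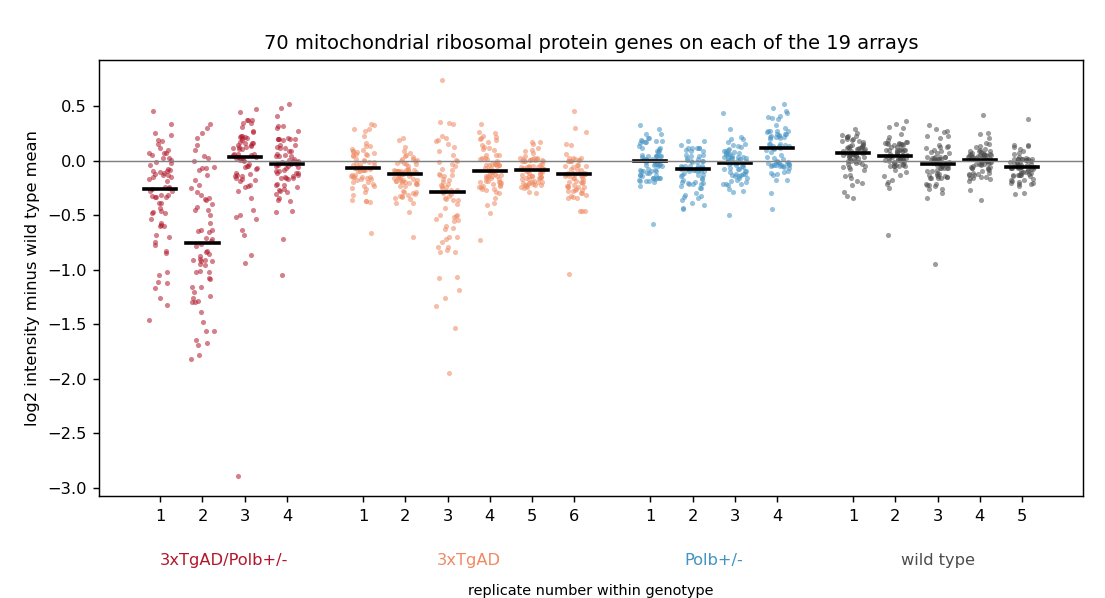
Each point is 1 of the 70 mitochondrial ribosomal protein genes on 1 array (x axis: replicate number within genotype), plotted as log2 intensity minus the gene's wild type mean (y axis); black lines are the medians of the 70. The median is -0.75 on 3xTgAD/Polb+/- replicate 2, -0.26 on replicate 1 and -0.29 on 3xTgAD replicate 3, and the clouds of these arrays reach far below the others.

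Replicate 2 of 3xTgAD/Polb+/- held the lowest of the 19 values for 44 of the 70 members (62.9%), against 18.1% of all genes. On this array 43 members were more than 0.5 below their wild type mean (61.4%, against 16.2% of all genes). More than 1 below, which is 2-fold, were 22 members, against 5.27% of all genes. The number more than 0.5 below was 19 on 3xTgAD/Polb+/- replicate 1 (27.1%, against 7.67% of all genes) and 25 on 3xTgAD replicate 3 (35.7%, against 9.72%). On 3xTgAD/Polb+/- replicates 3 and 4 it was 7 (10%, against 8.65% of all genes) and 2 (2.86%, against 6.03%). On each remaining array it was 0 or 1, against 0.69% to 5.49% of all genes. The spread between arrays was correspondingly wide in this genotype, with a median SD over members of 0.409 in 3xTgAD/Polb+/-, 0.167 in 3xTgAD, 0.145 in Polb+/- and 0.135 in wild type. Over all genes the median SDs were 0.283, 0.196, 0.177 and 0.192 in the same order of genotypes.

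The members did not deviate equally. Across the 70 genes the deviations on 3xTgAD/Polb+/- replicate 2 had a Spearman correlation of 0.886 with those on replicate 1 (0.641 over all genes) and of 0.777 with those on 3xTgAD replicate 3 (0.279 over all genes). With 3xTgAD/Polb+/- replicates 3 and 4 it was -0.002 and 0.393. With the other arrays of 3xTgAD and Polb+/- it lay between -0.056 and 0.513. All deviations share the same wild type means, and the genes are not independent replicates, so these values describe the arrays.

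**Figure D2:**
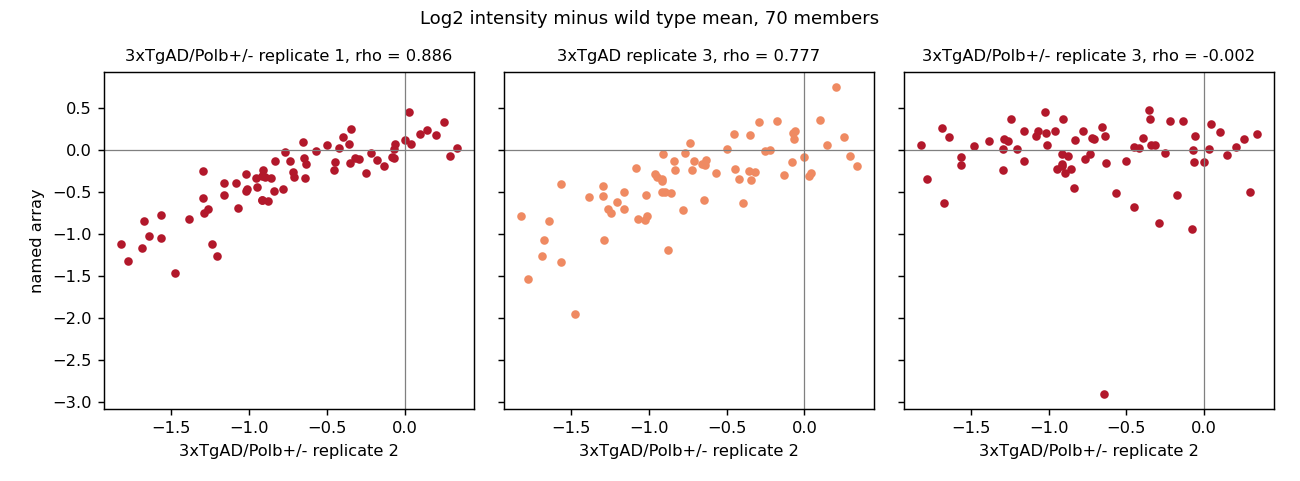
Each point is 1 of the 70 members, with its log2 deviation from the wild type mean on 3xTgAD/Polb+/- replicate 2 (x axis) and on the array named above each panel (y axis). The points rise together for 3xTgAD/Polb+/- replicate 1 and 3xTgAD replicate 3 (rho 0.886 and 0.777), and show no slope for 3xTgAD/Polb+/- replicate 3 (rho -0.002), where the lowest point is Mrps27.

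The first comparison, 3xTgAD/Polb+/- against wild type, asks how both alterations together differ from neither. In 3xTgAD/Polb+/- mice 58 of the 70 members had a mean below that of wild type, with a median log2 difference of -0.23, against 0.02 over all genes. In limma's moderated test with Benjamini-Hochberg adjustment over all genes 0 members passed an adjusted p of 0.05, where the background is 2 genes (0.0181%). At an unadjusted p under 0.05 in the same limma fit 25 members were lower and 0 higher, against a background of 7.6% of genes lower. Without 3xTgAD/Polb+/- replicate 2 the median was -0.10, with 49 members below 0 and 9 lower at an unadjusted p under 0.05 (background 4.4%). Within the "20- month" arrays, which hold replicates 1 and 2, the median was -0.44, and within the "20 month" arrays, which hold replicates 3 and 4, it was -0.07. With the spelling added to the limma fit as a block, 0 members and 34 of all genes passed an adjusted p of 0.05. The median of the members in that fit was -0.25.

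**Figure D3:**
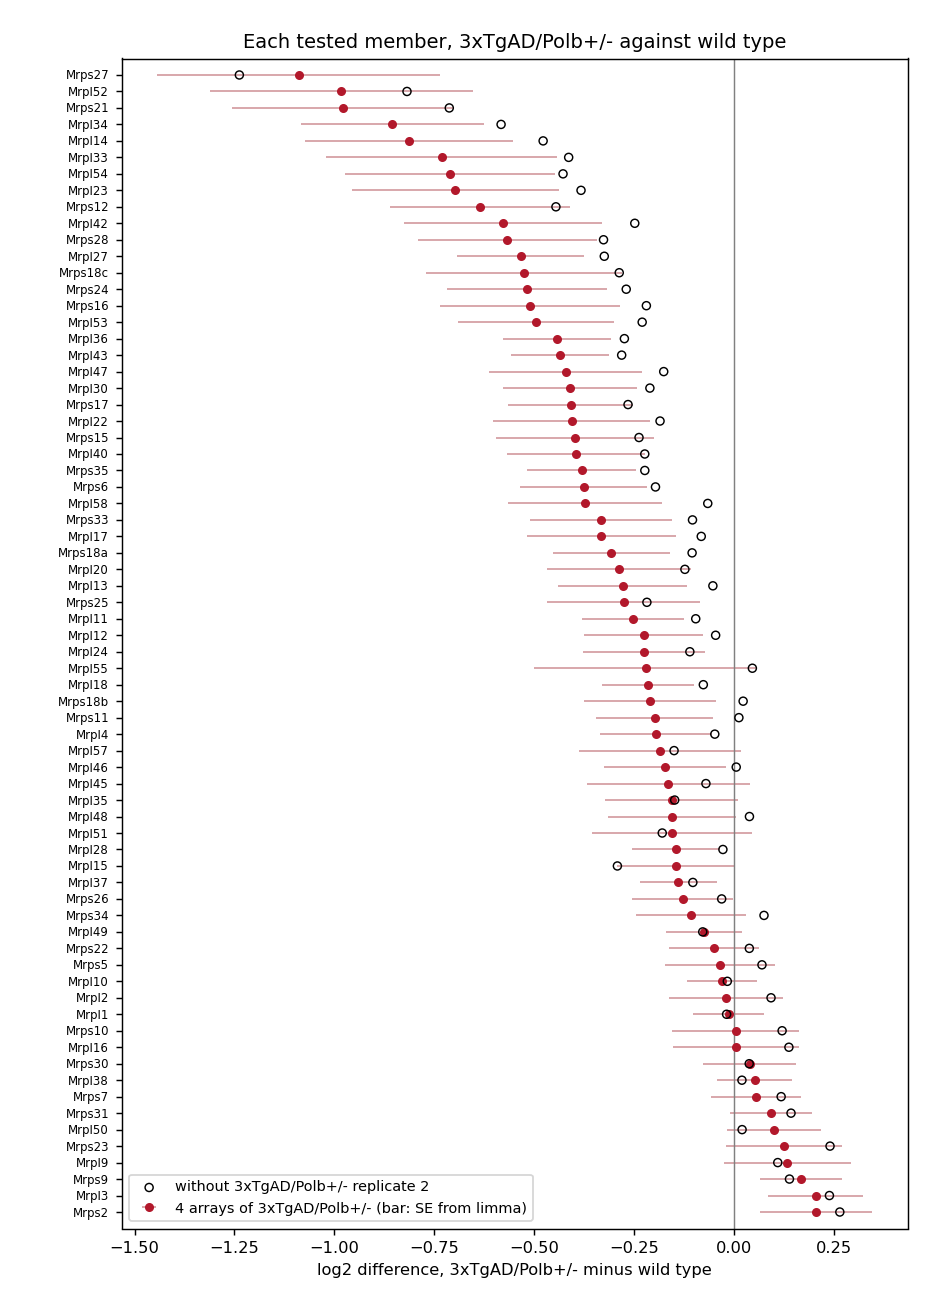
Log2 difference of 3xTgAD/Polb+/- from wild type (x axis) for each of the 70 members (rows), ordered by size, with filled points for all 4 arrays (bars: limma's SE) and open circles without 3xTgAD/Polb+/- replicate 2. The filled points run from -1.09 (Mrps27) to 0.21 (Mrps2), 58 of them below 0, and most open circles lie nearer to 0.

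The groups did not overlap at all for Mrpl43, Mrps21, Mrpl27 and Mrpl36, where each 3xTgAD/Polb+/- array was below each wild type array, against a background of 1.22% of genes. Mrpl43, a large subunit protein found only in mitochondria, had 10.21, 9.64, 10.26 and 10.29 in 3xTgAD/Polb+/- mice, against 10.56, 10.45, 10.55, 10.57 and 10.55 in wild type. Replicate 2 was the lowest by a wide margin, but the other 3 arrays also lay below every wild type array. The log2 difference was -0.44 ± 0.12 (limma's SE, adjusted p = 0.206), and it was -0.28 without replicate 2 (adjusted p = 0.467, limma). A second probe of Mrpl43 gave -0.35 (unadjusted p = 0.0111, limma).

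Mrpl27, whose bacterial counterpart reaches into the peptidyl transferase centre, had 10.19, 9.43, 10.46 and 10.13 in 3xTgAD/Polb+/- mice, against 10.58, 10.63, 10.55, 10.64 and 10.52 in wild type. The wild type values lay within a narrow band, and the 3xTgAD/Polb+/- values were spread over a log2 unit below it. The log2 difference was -0.53 ± 0.16 (limma's SE, adjusted p = 0.221). Mrps21, a bacterial-type protein of the small subunit, had 9.49, 9.04, 10.47 and 10.34 in 3xTgAD/Polb+/- mice, against 10.76, 10.82, 10.67, 10.88 and 10.95 in wild type. Here replicates 1 and 2 were lowest, and replicates 3 and 4 lay below the wild type range by less. The log2 difference was -0.98 ± 0.28 (limma's SE, adjusted p = 0.208), -1.57 within "20- month" and -0.38 within "20 month" arrays. Mrpl36, which joins the large subunit late in assembly, had 10.53, 10.02, 10.73 and 10.81 in 3xTgAD/Polb+/- mice, against 11.07, 11.15, 10.90, 10.85 and 10.84 in wild type, and the gap between the closest arrays of the 2 groups was small.

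Mrpl34, a small bacterial-type protein of the large subunit, had the smallest unadjusted p among the members (0.00138, limma, adjusted p = 0.166), with a log2 difference of -0.86 ± 0.23 (SE). Its values were 9.57, 8.74, 9.78 and 10.14 in 3xTgAD/Polb+/- mice, against 10.47, 10.49, 10.12, 10.50 and 10.48 in wild type. The groups overlapped only through wild type replicate 3, which was slightly below 3xTgAD/Polb+/- replicate 4. Without 3xTgAD/Polb+/- replicate 2 the difference was -0.58.

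Mrps27, a small subunit protein of the pentatricopeptide repeat family found only in mitochondria, had the largest log2 difference, -1.09 ± 0.35 (limma's SE, adjusted p = 0.243). Its values were 8.09, 7.55, 5.29 and 7.47 in 3xTgAD/Polb+/- mice, against 7.96, 8.26, 8.22, 8.23 and 8.28 in wild type. It was lowest on replicate 3, the only array of the 19 that did not detect it, as were 5 other members (Mrpl15, Mrpl35, Mrpl51, Mrpl57 and Mrps25), while replicate 1 lay within the wild type range. The difference was -0.49 without replicate 3 and -1.24 without replicate 2. On the 3xTgAD arrays the lowest, median and highest values of Mrps27 were 7.15, 7.56 and 7.998, and on Polb+/- arrays the values were 8.15, 8.11, 8.18 and 8.08. The gene lies on chromosome 13.

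**Figure D4:**
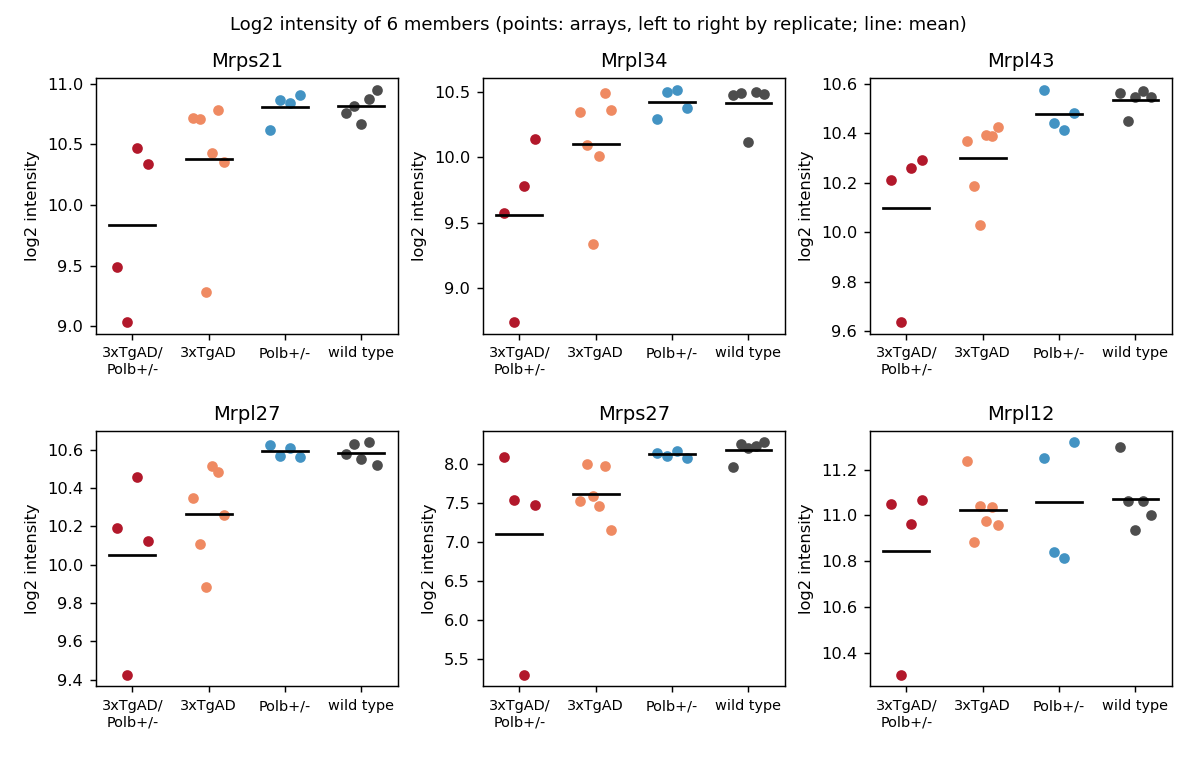
Log2 intensity (y axis, a separate scale in each panel) of 6 members on each array (points) with the mean of each genotype (line). Mrps21, Mrpl34, Mrpl43 and Mrpl27 are lowest on 3xTgAD/Polb+/- replicate 2 and low on 3xTgAD replicate 3, Mrps27 is lowest on 3xTgAD/Polb+/- replicate 3 (5.29), and Mrpl12 is set apart only on 3xTgAD/Polb+/- replicate 2 (10.31).

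Further members among the 20 with the smallest p were Mrpl14, at the face of the large subunit that meets the small one, Mrpl52, found only in mitochondria, Mrps12, of the decoding centre, and Mrpl33. Mrpl14 had 8.85, 8.14, 10.02 and 9.59 in 3xTgAD/Polb+/- mice, against 9.83 to 10.21 in wild type (lowest and highest of 5). Mrpl52 had 7.25, 7.24, 8.76 and 7.67 in 3xTgAD/Polb+/- mice, against 8.66 to 8.77 in wild type. Mrps12 had 10.34, 10.40, 11.61 and 11.52 in 3xTgAD/Polb+/- mice, against 11.39 to 11.90 in wild type. Replicates 1 and 2 were below the wild type range in each case, whereas replicate 3 was within it. Replicate 4 was below it for Mrpl14 and Mrpl52 and within it for Mrps12. The differences were -0.81 ± 0.26 for Mrpl14, -0.98 ± 0.33 for Mrpl52 and -0.64 ± 0.23 for Mrps12 (limma's SE), and for Mrps12 the difference was 0.14 within the "20 month" arrays. Both probes of Mrpl33 gave a difference of -0.73. The rest of these 20 genes (Mrps35, Mrpl54, Mrpl23, Mrps17, Mrps24, Mrpl53, Mrps28, Mrpl30, Mrps6 and Mrpl42) had differences between -0.71 and -0.38, with limma's adjusted p between 0.266 and 0.324.

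Values are also given for the stalk and for members with known roles. Mrpl12, a stalk protein that also binds the mitochondrial RNA polymerase, had 11.05, 10.31, 10.96 and 11.07 in 3xTgAD/Polb+/- mice, against 11.30, 11.06, 10.94, 11.06 and 11.001 in wild type. Apart from replicate 2 these values were within the wild type range. Mrpl11 and Mrpl10, also of the stalk and its base, differed by -0.25 ± 0.13 and -0.03 ± 0.09 (limma's SE). Among the relatives of bacterial S18, Mrps18a differed by -0.31, Mrps18b by -0.21 and Mrps18c by -0.53. Mrps30 and Mrps7, a protein of the small subunit head, differed by 0.04 and 0.055. Differences in the opposite direction were small, the largest being 0.21 ± 0.14 for Mrps2 and 0.20 ± 0.12 for Mrpl3 (limma's SE), 2 bacterial-type proteins of the small and the large subunit. A second probe of Mrpl3, detected on all 19 arrays, gave 0.11.

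The split by subunit and origin showed no clear contrast. In 3xTgAD/Polb+/- against wild type the median was -0.22 over the 45 large subunit members (39 below 0) and -0.28 over the 25 small subunit members (19 below 0). It was -0.27 over the 42 members of bacterial descent (35 below 0) and -0.17 over the 26 found only in mitochondria (21 below 0). Of the 20 members with more than 1 detected probe, 14 had all probes on the same side of 0, and 0 of their 46 probes passed an adjusted p of 0.05 in a limma fit of all probes. The share of all probes past it in that fit was not computed. The probes that differed in sign included second probes of Mrpl13 and Mrpl47 near background and a second probe of Mrpl37.

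The comparison of 3xTgAD/Polb+/- with Polb+/- mice concerns the 3 transgenic alleles, and 62 of 70 members had a lower mean and the median was -0.22 (0.03 over all genes). By limma 0 members passed an adjusted p of 0.05 (background 0.0903%), and 20 were lower at an unadjusted p under 0.05 (background 7.23%). Each 3xTgAD/Polb+/- array was below each Polb+/- array for Mrpl34, Mrps21, Mrpl27 and Mrpl43 (background 2.76%). Mrpl34 had 9.57, 8.74, 9.78 and 10.14 in 3xTgAD/Polb+/- mice, against 10.30, 10.50, 10.52 and 10.37 in Polb+/- mice, a log2 difference of -0.86 ± 0.24 (limma's SE, adjusted p = 0.158). Without 3xTgAD/Polb+/- replicate 2 the median of the members was -0.10, with 52 below 0 and 7 lower at an unadjusted p under 0.05 (background 5.09%), and without replicate 3 the count was 31 (background 10.8%). In the same contrast all 7 tested striatal markers were lower, with a median of -2.01. Their mean log2 intensity was 8.39 to 9.22 in 3xTgAD/Polb+/-, 8.53 to 10.67 in 3xTgAD, 10.30 to 11.01 in Polb+/- and 8.19 to 10.58 in wild type, and all 7 were lower at an unadjusted p under 0.05 in limma. Choroid plexus markers had a median of -1.09 in this contrast (3 of 4 lower) and microglial markers of -0.26 (9 of 9 lower), with a microglial median deviation of -0.57 on 3xTgAD/Polb+/- replicate 2. In Polb+/- against wild type the striatal median was 1.21. The part of striatal, choroid plexus and microglial markers in the members' differences was not tested in either contrast.

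For 3xTgAD/Polb+/- against 3xTgAD mice, which differ in Polb, the median was -0.12 with 54 of 70 members below 0 (0.01 over all genes). By limma 0 members passed an adjusted p of 0.05 (background 0%), 4 were lower at an unadjusted p under 0.05 (background 3.99%) and 2 were higher (background 4.83%). No member was lower on every 3xTgAD/Polb+/- array than on every 3xTgAD array. The share of all genes separated in this way was not computed for this contrast, so the absence is not interpreted. Without 3xTgAD/Polb+/- replicate 2 the median was 0.01, with 33 members below 0 and 0 lower at an unadjusted p under 0.05 (background 2.95%). That count was 18 without 3xTgAD/Polb+/- replicate 3 (background 8.08%), 13 without 3xTgAD replicate 3 (background 5.48%) and 1 without 3xTgAD replicates 4 and 6, the arrays with low Polb (background 5%). In the fit without these 2 arrays the median was -0.12, with 48 members below 0. With all arrays of a spelling kept, the median was -0.38 within the "20- month" and 0.18 within the "20 month" arrays, so its direction differed between the spellings. The members higher at an unadjusted p under 0.05 in 3xTgAD/Polb+/- mice were Mrps2 and Mrpl50. Mrps2 had 8.001, 7.57, 7.56 and 7.87 in 3xTgAD/Polb+/- mice, against a lowest, median and highest value of 7.21, 7.36 and 7.80 in 3xTgAD mice, and the groups overlapped through 3xTgAD replicate 4. Its log2 difference was 0.34 ± 0.13 (limma's SE, adjusted p = 0.501), and it was also 0.34 within each spelling.

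In 3xTgAD against wild type the median was -0.14 with 61 of 70 members below 0 (-0.01 over all genes). By limma 0 members passed an adjusted p of 0.05 (background 0.00903%) and 4 were lower at an unadjusted p under 0.05 (background 3.01%). For Mrps15, Mrpl27, Mrpl43, Mrpl30, Mrpl47, Mrpl22 and Mrpl54, 7 in all, each 3xTgAD array was below each wild type array, against a background of 0.47% of genes. The median was -0.10 without 3xTgAD replicate 3, with 63 members below 0 and 0 lower at an unadjusted p under 0.05 (background 2.14%). It was -0.16 without replicates 4 and 6, the arrays with low Polb, with 59 members below 0 and 4 lower at an unadjusted p under 0.05 (background 4.56%). The count was 7 without 3xTgAD/Polb+/- replicate 2 and also without its replicate 3, which enter through the shared estimate of spread (background 3.73% and 3.62%). Within the "20- month" and the "20 month" arrays the median was -0.07 and -0.22.

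Mrps15, a bacterial-type protein of the small subunit, had 6.03, 6.86 and 7.02 as its lowest, median and highest values in 3xTgAD mice, against 7.09, 7.05, 7.54, 7.30 and 7.13 in wild type. The closest arrays of the groups were 3xTgAD replicate 4 and wild type replicate 2, and 3xTgAD replicate 3 stood lowest. The log2 difference was -0.45 ± 0.18 (limma's SE, adjusted p = 0.799). Mrpl43 had 10.03, 10.38 and 10.43 in 3xTgAD mice, against a lowest value of 10.45 in wild type, a log2 difference of -0.24 ± 0.11 (limma's SE, adjusted p = 0.863). Mrpl22, which lines the exit tunnel of the large subunit, differed by -0.35 ± 0.18, Mrpl30 by -0.32 ± 0.15 and Mrpl47 by -0.34 ± 0.17 (limma's SE). On the other side, Mrpl9 and Mrpl3 of the large subunit differed by 0.25 ± 0.14 and 0.20 ± 0.11 (limma's SE). The second probe of Mrpl3 gave -0.30, so its probes disagree in sign, and so did a second probe of Mrpl47 near background (0.06).

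In Polb+/- against wild type the members were divided evenly, 34 below and 36 above 0, with a median of 0.00 (0.00 over all genes). By limma 0 members passed an adjusted p of 0.05 (background 0%) and 0 were lower at an unadjusted p under 0.05 (background 1.65%). Likewise 0 were higher at that threshold (background 189 of 11072 genes). The differences ran from -0.19 (Mrpl48) to 0.22 (Mrpl3), but the second probe of Mrpl3 gave -0.37. Mrps6 alone separated the groups downward (background 0.804%), with 9.86, 9.83, 9.88 and 9.85 in Polb+/- mice, against 9.95, 9.97, 10.13, 10.13 and 9.94 in wild type. The comparisons with wild type share their 5 control arrays, and those that involve 3xTgAD/Polb+/- share its 4 arrays, so they are not independent.

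The interaction, in which the difference of 3xTgAD/Polb+/- from 3xTgAD is set against that of Polb+/- from wild type, had a median of -0.12 with 54 of 70 members below 0, and of 0.02 over all genes. By limma 0 members passed an adjusted p of 0.05 (background 0%). In the same fit 0 were lower at an unadjusted p under 0.05 (background 1.47%) and 0 higher (background 194 of 11072 genes). The median was 0.02 without 3xTgAD/Polb+/- replicate 2, -0.36 within the "20- month" and 0.14 within the "20 month" arrays. It was -0.11 without 3xTgAD replicates 4 and 6, with 48 members below 0. At an unadjusted p under 0.05 in limma 4 members were lower without 3xTgAD replicate 3 (background 2.23%) and 6 without 3xTgAD/Polb+/- replicate 3 (background 3.95%). The F test of limma for any difference among the 4 genotypes called 0 members (background 0.154%), with 13 members at an unadjusted p under 0.05 (background 11.5%), led by Mrpl34 (adjusted p = 0.236).

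Some settings brought members past the threshold, and the background grew with them. With only the "20- month" arrays, where 3xTgAD/Polb+/- is represented by replicates 1 and 2, limma called 33 members in 3xTgAD/Polb+/- against wild type, all lower (background 14.1%), 31 against Polb+/- (11.5%), 20 against 3xTgAD (5.91%), 10 in the interaction (1.36%) and 20 in the F test (6.99%). With weights estimated for each array the counts were 27 against wild type (26 lower and 1 higher, background 11.8%), 21 against Polb+/- (all lower, 11.1%), 13 against 3xTgAD (12 lower and 1 higher, 5.25%) and 22 in the F test (11.8%), and this fit gave 3xTgAD/Polb+/- replicate 1 a weight of 3.17 and the other arrays of its genotype 0.233 to 0.407. The member called higher was Mrps2 in both contrasts, at 0.41 against wild type and 0.56 against 3xTgAD. Without 3xTgAD/Polb+/- replicate 3 there were 12 against wild type (2.93%) and 8 against Polb+/- (2.36%).

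Other gene lists were measured on the same arrays. On 3xTgAD/Polb+/- replicates 1 to 4 the median deviation of 75 nuclear genes of oxidative phosphorylation was -0.71, -1.23, 0.07 and -0.16, and that of 56 cytosolic ribosomal protein genes was -0.51, -1.10, 0.17 and -0.18. On 3xTgAD replicate 3 the values were -0.62 and -0.59. Both lists were thus low on the arrays where the mitochondrial ribosomal proteins were low, and by more. In 3xTgAD/Polb+/- against wild type, 66 of 75 oxidative phosphorylation genes had a lower mean (median -0.48) and 49 of 56 cytosolic ribosomal protein genes (median -0.44). Limma called 0 genes of either list at an adjusted p of 0.05, although 45 and 27 were lower at an unadjusted p under 0.05 (background 7.6%). At that threshold 0 and 1 were higher (background 622 of 11072 genes). The counts lower were 18 and 3 without 3xTgAD/Polb+/- replicate 2 (background 4.4%). The genes with the smallest p were Cox7a1, a subunit of cytochrome c oxidase, at -1.13 ± 0.27 (limma's SE, adjusted p = 0.133) and Rpl34 at -0.78 ± 0.27 (limma's SE, adjusted p = 0.266).

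Most lists of genes that work with the mitochondrial ribosome had medians near or above 0. In 3xTgAD/Polb+/- against wild type the median was 0.05 over 9 mitochondrial translation factors (2 below 0), 0.07 over 18 genes of mitoribosome assembly and ribosomal RNA processing (6 below 0), 0.06 over 12 mitochondrial aminoacyl-tRNA synthetases (5 below 0), 0.07 over 16 genes of mitochondrial DNA transcription and upkeep (5 below 0) and 0.11 over 11 enzymes of the TCA cycle (3 below 0). The 20 genes of mitochondrial protein import had a median of -0.13 (13 below 0), with Tomm7 and Timm10, small proteins of the import machinery, at -0.98 ± 0.33 and -0.66 ± 0.22 (limma's SE). Of 4 mitochondrial ribosomal proteins with other symbols Chchd1 had -0.44, Gadd45gip1 -0.04, Dap3 0.13 and Ptcd3 0.16. Lrpprc, which stabilises mitochondrial messenger RNAs, had 0.25 ± 0.11, and Esrra, a nuclear receptor that regulates mitochondrial genes, had -0.51 ± 0.13 (limma's SE, adjusted p = 0.133). Limma called 0 genes of these lists at an adjusted p of 0.05. Of the 20 import genes 5 were lower and 0 higher at an unadjusted p under 0.05. In each of the other lists 0 to 2 were lower and 0 to 2 higher. The background is 7.6% of genes lower and 622 of 11072 genes higher.

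**Figure D5:**
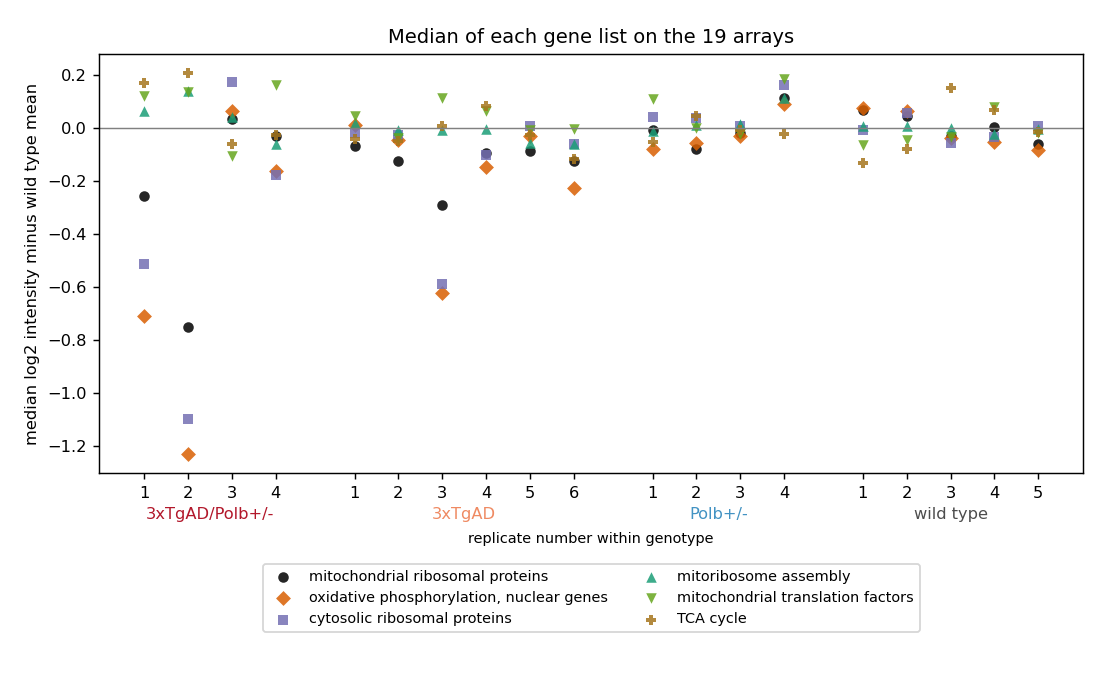
Median over each gene list of the log2 intensity minus the wild type mean (y axis) on each array (x axis: replicate number within genotype). Mitochondrial ribosomal proteins, oxidative phosphorylation genes and cytosolic ribosomal proteins are low together on 3xTgAD/Polb+/- replicates 1 and 2 and 3xTgAD replicate 3, with medians down to -1.23, while assembly factors, translation factors and TCA cycle genes stay between -0.13 and 0.21 on all arrays.

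Markers of blood, with 3 genes tested, had median deviations of -0.78, -1.73, 1.07 and 0.19 on 3xTgAD/Polb+/- replicates 1 to 4. On 3xTgAD arrays they lay between -0.57 and 0.25, on Polb+/- arrays between -0.23 and 1.22, and on wild type arrays between -0.22 and 0.36. The lowest of these medians was on 3xTgAD/Polb+/- replicate 2, and 3xTgAD replicates 3 and 6 both had -0.57. The part of blood in the members' values was not tested. The median deviation of 6 pan-neuronal markers was 0.11 and 0.25 on 3xTgAD/Polb+/- replicates 1 and 2 and 0.15 on 3xTgAD replicate 3. In bulk tissue, fewer cells of a type and less RNA per cell cannot be told apart.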

How the data were processed

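Total RNA was amplified from an oligo-dT primer into biotin-labelled cRNA and hybridised to Illumina bead arrays, per the labels' protocols. The deposited intensities are bead averages per probe without normalisation and the deposited detection p-values belong to the same probes, per the file headers; GenomeStudio 1.9.0 is named in the submitters' processing notes. A deposited table of scores by the authors matched the z score of each array's log10 intensity (largest gap 5e-10) and served as an alternative.

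Intensities were background-corrected and quantile-normalised with neqc (offset 16) in limma 3.58.1 (R 4.3.3, with version 1.17.8 of data.table). Of 25697 probes, 14942 with a detection p under 0.05 on at least 4 arrays were kept, and each symbol was represented by its probe with the highest mean, which left 11072 genes. The 2 rows without a probe name were left out. One limma fit over the 4 genotypes (15 residual and 4.42 prior degrees of freedom) gave all contrasts, adjusted by Benjamini-Hochberg over all genes. On data simulated for 3xTgAD/Polb+/- against wild type with 11072 genes it recovered 92% of 200 genes changed by a log2 value of 1. In the measured data Mrps27, Mrps21 and Mrpl52 differed by -1.09, -0.98 and -0.98 in this contrast, and 0 members passed limma's adjusted p of 0.05. The median SD over members was 0.409 in 3xTgAD/Polb+/- and 0.135 in wild type. Recovery with a spread that differs in this way between the groups was not tested. Promoters and figures used Python 3.11.15, pandas 2.3.3 and matplotlib 3.10.9.

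Genes were named by a rule: those past the threshold, the 20 with the smallest p in 3xTgAD/Polb+/- against wild type and 6 in each other contrast, the 2 largest against the median's direction, those with several probes or too little signal, and members with set roles. The members and gene lists were chosen with earlier results of these data known. Replicate numbers were checked for pairing: deviations of arrays with the same number correlated between -0.345 and 0.441 (25 pairs, median -0.171), so the arrays were not treated as paired. Alternatives changed the background correction, detection filter, probe choice, array weights, age spelling and the arrays included. The headings give 3xTgAD replicates 2 and 5 the same code, and averaging them was an alternative. Mrpl41, Mrpl44 and transcripts encoded by mitochondrial DNA are not analysed here.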

Additional observations from a re-analysis of the deposited data

Results flagged for a closer look

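Of 128 groups of values of the named members and of the members' median, 19 (14.8%) held 1 array whose gap to the nearest other array was large against the range of its group; chance sets apart about 1 in 20. The values share arrays and are not independent. In 3xTgAD/Polb+/- mice this was Mrpl43 on replicate 2 (9.638). In 3xTgAD mice it was replicate 3 each time, for the members' median deviation (-0.29) and for Mrps21 (9.285), Mrpl52 (6.766), Mrpl54 (9.041), Mrps24 (11.513), Mrpl53 (11.012), Mrpl33 (10.19), Mrps28 (8.165), Mrpl30 (9.44), Mrps15 (6.031) and Mrpl22 (8.662), all below the other 5 arrays.

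In Polb+/- mice the arrays set apart were replicate 4 for Mrpl33 (11.421), replicate 3 for Mrps28 (9.023) and replicate 2 for Mrps15 (6.791). In wild type they were replicate 3 for Mrpl34 (10.118) and Mrps24 (12.061), replicate 2 for Mrpl43 (10.449) and replicate 1 for Mrps27 (7.963). All values are log2 intensities, except the median deviation, and their causes were not tested.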

How the results depend on the processing

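The count of members past limma's adjusted p of 0.05, 0 in each contrast and in the F test, was also 0 in every alternative but 3. Within the "20- month" arrays it was 33 in 3xTgAD/Polb+/- against wild type (background 14.1%), 20 against 3xTgAD (5.91%), 31 against Polb+/- (11.5%), 10 in the interaction (1.36%) and 20 in the F test (6.99%). With array weights it was, in the same order, 27 (background 11.8%), 13 (5.25%), 21 (11.1%), 0 (3 of 11072 genes) and 22 (11.8%). Leaving out each array in turn gave 0 to 12 against wild type, 0 to 8 against Polb+/- and 0 elsewhere. The highest counts were without 3xTgAD/Polb+/- replicate 3 (background 2.93% and 2.36%). The median member difference ranged over these fits from -0.3504 to -0.1036 in 3xTgAD/Polb+/- against wild type, -0.2196 to 0.0079 against 3xTgAD, -0.3706 to -0.1012 against Polb+/-, -0.1572 to -0.0983 in 3xTgAD against wild type, -0.0489 to 0.0315 in Polb+/- against wild type and -0.2038 to 0.0165 in the interaction. Within the "20- month" arrays it was -0.4383, -0.3826 and -0.4224 in the first 3 and -0.3563 in the interaction, and within the "20 month" arrays it was 0.1784 in 3xTgAD/Polb+/- against 3xTgAD and 0.1414 in the interaction. Within the "20 month" arrays 8 differences of named members changed sign: Mrps12 (0.1398), Mrpl33 (0.0058) and Mrps6 (0.0688) in 3xTgAD/Polb+/- against wild type, Mrpl34 (0.0341), Mrpl14 (0.1356) and Mrps12 (0.1527) against 3xTgAD, and Mrpl3 (-0.1139) and Mrps9 (-0.0739) in Polb+/- against wild type. The causes were not tested. With 3xTgAD/Polb+/- replicate 2 left out and the spelling as a block, an alternative chosen after seeing the data, the median was -0.1271 in 3xTgAD/Polb+/- against wild type and -0.0001 against 3xTgAD. With the replicate number as a block (replicate block), 0 members were called and the median in 3xTgAD/Polb+/- against wild type was -0.2399; the numbers do not pair the arrays. Precision is limited by 4 to 6 arrays a genotype, and for Mrpl15 and Mrpl45 by signal near background.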
